A study of Mus musculus with 6 samples.

Results

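The genes described here encode the machinery that builds and recycles actin filaments: the filament-severing protein cofilin (Cfl1), the Arp2/3 complex subunits Arpc1b, Arpc2, Arpc3, Arpc4, Arpc5, Actr2 and Actr3, the monomer carrier profilin (Pfn1) and beta-actin (Actb). They were taken by symbol and make up 10 of the 55450 gene rows of the count table. The set was chosen by the difference in counts between the groups of these same libraries, so its differences between the groups are given as a description, without a p-value. Each library was made from RNA of 2000 bone marrow cells of C57BL6/SJL mice, sorted as lineage-negative and Sca-1-positive. In both groups the cells were taken 12 weeks after blood stem cells of the LSK/SLAM phenotype had been transplanted into irradiated recipients. One group had endogenous microRNA-125a (miR-125a, titled EV in the labels) and the other overexpressed it (titled 125a). The libraries analysed were replicates 1 and 3 with endogenous and replicates 2 and 3 with overexpressed miR-125a, or n = 2 per group of the 3 that the labels name. The sources used here do not give the promoter driving miR-125a, any pooling of animals or the share of remaining recipient cells. The labels do not say whether each library had its own recipient, so p-values and standard errors cover the spread among these libraries alone, and that spread may be technical.

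Actin filaments grow by adding profilin-bound monomers and are taken apart with the help of cofilin, which severs older filaments and returns monomers to the pool. The Arp2/3 complex, in which the actin-related proteins Actr2 and Actr3 are held by Arpc subunits, starts new filaments as branches on existing ones once a WASP or WAVE family protein switches it on. In blood cells this cycle drives migration, homing, phagocytosis and contacts between immune cells, and inherited loss of WASP or ARPC1B causes immune deficiency.

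Total counts ran from 654126 to 737431 per library. All values below are in the order endogenous 1, endogenous 3, overexpressed 2, overexpressed 3. Background signal was gauged from 1479 odorant, vomeronasal and trace-amine receptor genes, which blood cells do not use; 95% of them had a mean of at most 8.30 counts per kb of exon. Of 8 markers of the sorted cells, 1 lay above that level, and Ly6a, which encodes the Sca-1 used for the sort, had 1, 0, 1 and 1 counts. Neutrophil markers, 6 of 9 above that level, summed to 4845 and 6170 counts in the endogenous libraries and to 11567 and 7899 in the overexpressed ones. Most of these were of 1 gene, Ltf (4538 and 3735 against 8490 and 7413). S100a8 overlapped (36 and 1130 against 739 and 205), and Ly6g was slightly lower (5 and 4 against 2 and 3). Erythroid markers summed to 90 and 1748 against 285 and 124, and Car2 gave 1021 of the 1748. The part of other cell types in the actin values was not tested. The 10 actin genes together took 0.116%, 0.148%, 0.0902% and 0.0186% of all counts. Overexpressed 3, the library with the smallest share, also had the lowest share of mitochondrially encoded counts, 0.558% against 4.14% to 6.29% in the other libraries, and 7 of the 10 genes had fewer than 10 counts in it. The part of that library's quality in the values below was not tested. In bulk libraries fewer expressing cells and less RNA per cell cannot be told apart.

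Cfl1 combined a wide gap between the groups with endogenous libraries that matched each other. Its counts were 263 and 323 with endogenous and 1 and 4 with overexpressed miR-125a. Both endogenous libraries stood far above both overexpressed libraries, and after scaling the endogenous libraries differed by 1.01-fold (1 count added). The log2 fold, overexpressed over endogenous, was -6.70 ± 0.99 (SE, n = 2 against 2), and it ran from -7.81 to -6.11 when any 1 library was left out. From summed counts Cfl1 was 107-fold lower, with a 95% exact (Clopper-Pearson) interval of 45.6 to 331 that covers counting error only, since reads were counted without molecular identifiers. Cfl1 lies on chromosome 19 at 5490455 to 5495201 (mm10, plus strand). Its exons overlap by 468 bases those of Snx32, a sorting nexin gene on the opposite strand, which had 15 and 14 counts against 27 and 48. The sources used here do not say whether counting used the strand, so reads from the overlap cannot be assigned with certainty. When the counts of Snx32 and of the pseudogene Gm6180, which each share at least 5% of the 50-base words of the Cfl1 transcript, were added to those of Cfl1, the sums were 283 and 339 against 28 and 52. The log2 ratio of these sums was -2.82, against -6.30 for the Cfl1 row alone computed the same way, and the groups still did not overlap. Read on either strand, 23.0% of the 50-base words of Cfl1 occur in other genes, 16.2% in Snx32, so the Cfl1 counts are uncertain. The other members of the cofilin family were barely detected: the muscle form Cfl2 had 2, 2, 1 and 0 counts and destrin (Dstn) 1, 1, 2 and 0.

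Arpc1b, the form of the WD-repeat subunit that predominates in blood cells, had 237 and 35 endogenous counts against 0 and 0 overexpressed ones. The groups did not overlap, and the gene was at least 82.8-fold lower with overexpression when 3 counts over the overexpressed group were taken as the floor. The bound rests mostly on endogenous 1 and is at least 19.3-fold without that library. The endogenous libraries did not match each other: replicate 1 was 8.18-fold above replicate 3. Arpc1b lies on chromosome 5 at 145114215 to 145130705 (mm10, plus strand), and 931 bases of its exons are covered by Pdap1 on the opposite strand. Pdap1 had 1, 0, 0 and 0 counts, and the Arpc1b pseudogene Gm5637 had 5, 2, 1 and 3. With both added the counts were 243 and 37 against 1 and 3 and the log2 ratio -5.57, against -7.09 for the Arpc1b row alone computed with 1 count added, and the groups still did not overlap. In all 42.2% of the 50-base words of Arpc1b, read on either strand, occur in other genes, so its counts are uncertain. Most of these are shared with Pdap1, which holds 28.9% of the Arpc1b words. Arpc1a, the isoform made in most tissues, had 12 and 10 against 4 and 6 counts, with a log2 fold of -1.01 ± 0.60.

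**Figure D1:**
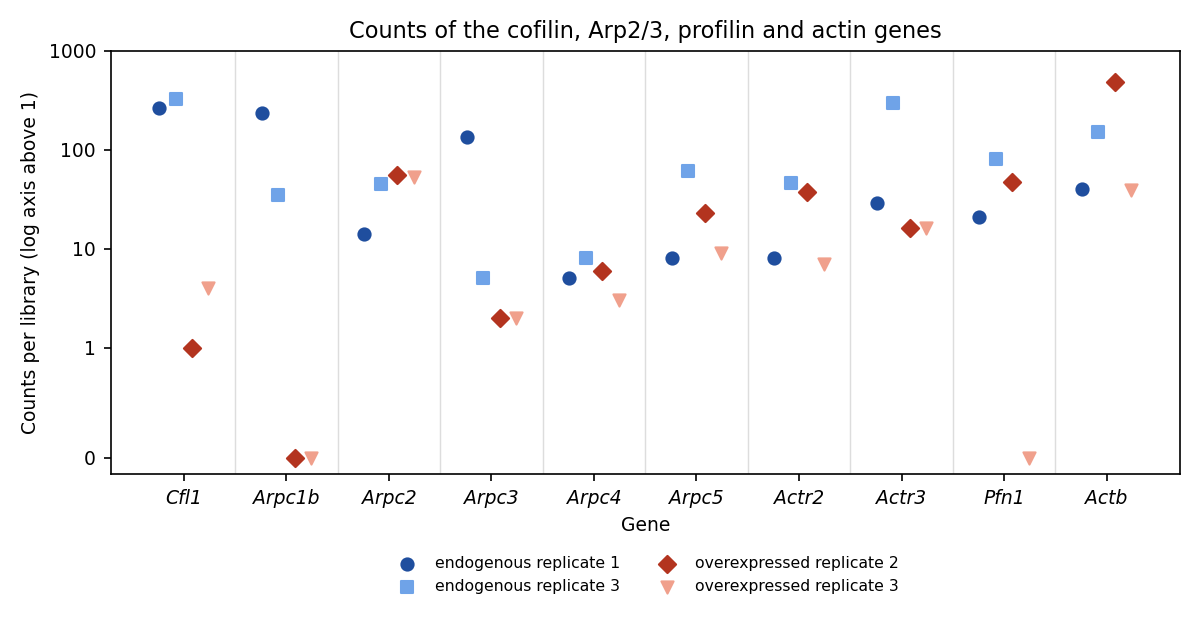
Counts of each gene (x axis) in the 4 libraries (y axis, counts, a log axis above 1 that is linear below it); blue symbols are the endogenous and red symbols the overexpressed libraries. Cfl1 sits at 263 and 323 against 1 and 4 and Arpc1b is at 0 in both overexpressed libraries, while for Arpc4, Arpc5, Actr2, Pfn1 and Actb the libraries of the groups interleave.

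The other Arp2/3 subunits did not follow Arpc1b as a block. Arpc3, a small subunit of the complex, had 133 and 5 counts against 2 and 2. The groups did not overlap, but nearly all counts came from endogenous 1, which was 27.6-fold above endogenous 3. With 10 or more counts in 1 library only, Arpc3 fell below the count filter and was not tested. Actr3, which with Actr2 forms the start of the new filament, had 29 and 297 counts against 16 and 16. Here endogenous 3 held most of the signal, and the log2 fold of -3.09 ± 1.11 became -0.88 without that library. Actr3 lies on chromosome 1 at 125392905 to 125435727 (minus strand), and 49.8% of its 50-base words occur in other genes, so its counts are uncertain; the pseudogene Gm8822, which holds 48.3% of them, had 5, 7, 2 and 6 counts.

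Arpc2, which with Arpc4 makes the core that holds the complex together, was the 1 gene of the 10 with both overexpressed libraries above both endogenous ones. It had 14 and 45 counts against 55 and 53. The margin between endogenous 3 and the overexpressed libraries was small, and the log2 fold was 1.07 ± 0.63, from 0.58 to 1.92 when any 1 library was left out. Arpc4 had 5 and 8 counts against 6 and 3, too few to be tested, and its groups overlapped. Arpc5, a small outer subunit, had 8 and 61 counts against 23 and 9 (log2 fold -0.85 ± 0.92). Actr2 had 8 and 46 against 37 and 7 (log2 fold -0.03 ± 0.98). For both, the groups overlapped, and the sign of the fold turned with the library left out: from -1.80 to 0.99 for Arpc5 and from -1.82 to 1.47 for Actr2. The isoforms Arpc5l and Actr3b had 29 and 11 against 7 and 9 counts and 9 and 8 against 2 and 11.

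Because the complex is built with 1 copy of each subunit, the evenness of the subunit levels within a library was also described, in counts per kb of exon. In endogenous 1 the 7 subunit genes ran from 1.54 (Actr2) to 48.2 (Arpc3), 31.3-fold apart. In endogenous 3 they ran from 1.81 (Arpc3) to 64.1 (Actr3), 35.4-fold apart. By this measure Arpc3, the highest in endogenous 1, was the lowest in endogenous 3. That lowest rank depends on the length used. The exons of Arpc3 cover 2762 bases but its longest transcript has 899, while Arpc4 has 2321 and 2270. In endogenous 3 the counts were 5 for Arpc3 and 8 for Arpc4, so no change of order is read from them. In both overexpressed libraries Arpc1b was lowest, at 0, and Arpc2 highest, at 27.1 and 26.1. Against each library's own receptor genes, 2, 3, 3 and 1 of the 7 subunit genes exceeded the level that 95% of receptor genes did not.

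**Figure D2:**
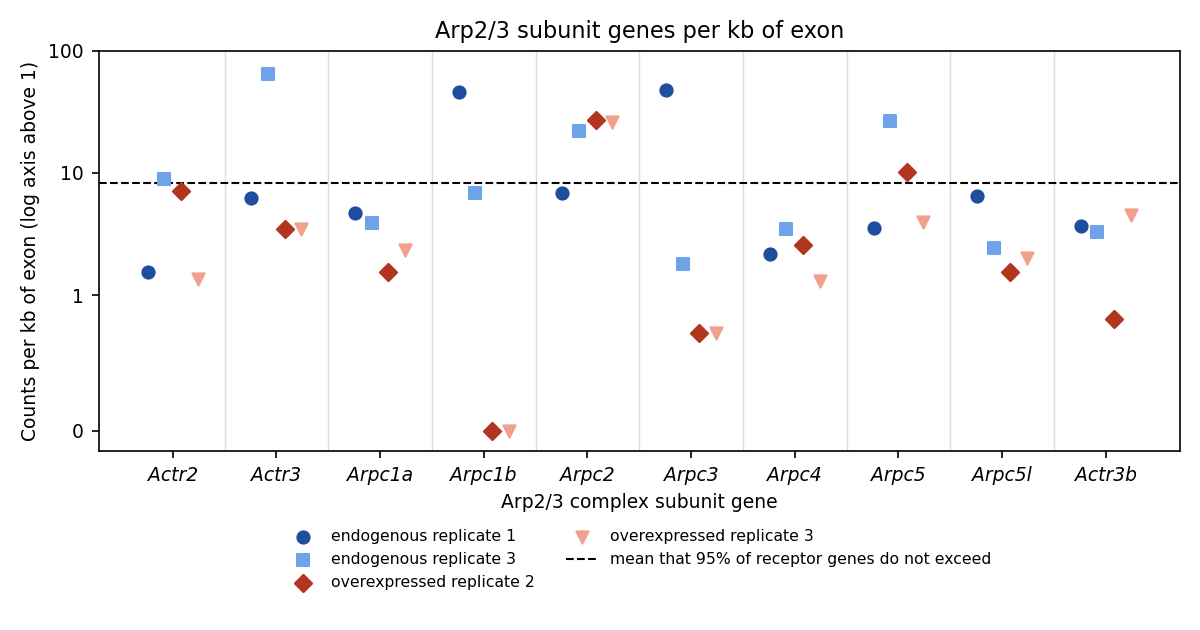
Counts per kb of exon (y axis, a log axis above 1) of the Arp2/3 subunit genes and their isoforms (x axis) in each library; the dashed line marks 8.30, the mean that 95% of receptor genes did not exceed. Within a library the subunits spread widely. Per kb of exon Arpc3 is the highest of the 7 in endogenous 1 and the lowest in endogenous 3, a lowest rank that depends on the length used.

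Profilin and actin varied within the groups as much as between them. Pfn1, the main profilin of blood cells, had 21 and 80 counts against 47 and 0. The overexpressed libraries differed by 54.7-fold (1 count added) and lay on either side of endogenous 1, with endogenous 3 above both. Its log2 fold of -0.82 ± 1.51 was 0.21 without endogenous 3. Without overexpressed 2 the remaining overexpressed library was at 0, which gives at least 16.4-fold lower with a floor of 3 counts over that group. Actb had 40 and 152 counts against 478 and 39. The high value came from overexpressed 2 alone, and the overexpressed libraries differed by 13.6-fold. The log2 fold of Actb was 1.72 ± 1.30 and turned to -1.18 without overexpressed 2. Gamma-actin (Actg1), the other cytoplasmic actin, had 1, 2, 3 and 0 counts, and brain profilin (Pfn2) had 1, 3, 2 and 6. With 56.7% of its 50-base words found in other genes, Actg1 is uncertain too.

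**Figure D3:**
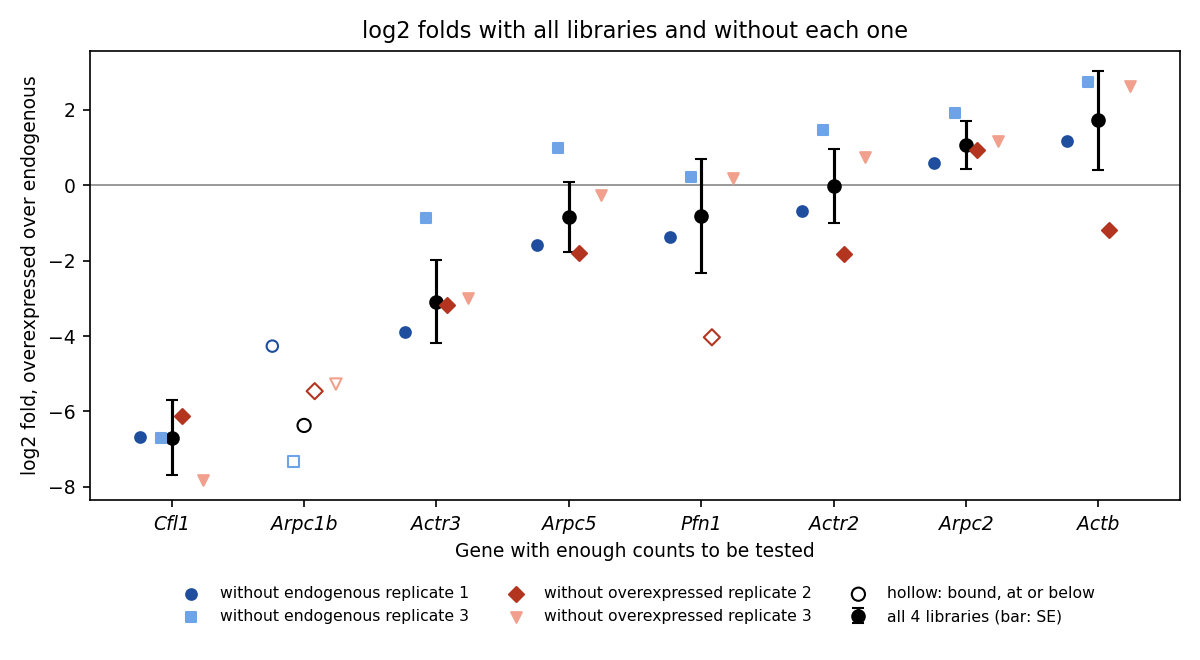
log2 fold, overexpressed over endogenous (y axis), of the 8 tested genes (x axis) with all 4 libraries (black, bar ± SE) and without each library in turn (coloured). Hollow symbols are bounds, where the overexpressed counts were all 0 and the fold lies at or below the symbol; Cfl1 stays between -7.81 and -6.11, while Arpc5, Actr2, Pfn1 and Actb cross 0.

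By mean level over the 4 libraries, in counts per kb of exon, the order was Actb (66.2), Cfl1 (52.0), Arpc2 (20.5), Actr3 (19.3), Pfn1 (15.4), Arpc1b (13.3), Arpc3 (12.9), Arpc5 (11.1), Actr2 (4.71) and Arpc4 (2.37). Per kb of the longest transcript Arpc3 (39.5) and Actr3 (34.9) came above Arpc2 (29.0), so the order depends on the length used. The means per kb of exon come from libraries that differed many-fold, and the ranges over libraries of neighbours in that order overlapped throughout. Of the 10 genes, 8 lay above the level that 95% of receptor genes did not exceed, beside 8.26% of all gene rows, and 2 (Actb and Cfl1) lay above the 99% level of 26.4. Arpc1b and Arpc3 passed through endogenous 1 alone and Actr3 through endogenous 3 alone. Arpc5 rested mostly on endogenous 3 (3.52, 26.8, 10.1 and 3.95), and Cfl1 passed through the endogenous libraries only. Nothing is therefore read from the count of 8. Against each library's own receptor genes, 4, 6, 5 and 2 of the 10 genes lay above the 95% level. The 7 paralogs Cfl2, Dstn, Arpc1a, Arpc5l, Actr3b, Pfn2 and Actg1 all lay below the 95% level, between 0.383 and 3.12.

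Across the 10 genes, the groups did not overlap for 5: Cfl1, Arpc1b, Arpc3 and Actr3 were lower and Arpc2 was higher in both overexpressed libraries. Counted over the 8 tested genes, this was 3 lower and 1 higher, beside 18.0% and 15.2% of all 10808 genes tested. Since these counts chose the genes, nothing is read from that comparison. The median log2 fold of the 8 tested genes was -0.83, against -0.006 over all genes tested; it was 0.60 without endogenous 3 and -2.50 without overexpressed 2.

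Spread between replicates was large for these genes. In 6 of the 8 tested genes the libraries of at least 1 group were over 4-fold apart, beside 12.2% of all genes tested. Among genes above the 95% level of the receptor genes the counts were 5 of 7, beside 26.5%. The genes were chosen by differences among these same libraries, and some passed that level through 1 high library. Nothing is therefore read from these shares. Cfl1 and Arpc2 were the tested exceptions.

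With edgeR's quasi-likelihood test none of the 10808 genes passed an adjusted p of 0.05 (0%), and so none of the 8 tested actin genes did; 566 genes had an unadjusted p under 0.05. limma-voom with quality weights also called 0 genes, with 263 at an unadjusted p under 0.05, and edgeR's newer dispersion estimate called 0, with 655. DESeq2 called 151 genes, 94 of them lower (0.87% of the 10808), among them Cfl1 and Arpc1b. It gave no adjusted p to 6705 of the 10808, so the share among genes it could call is larger. Without the count filter edgeR called 822 genes, 495 of them lower (1.07%), among them Cfl1, Arpc1b, Arpc3 and Actr3. An FDR under 0.05 was given to 404 of 17039 genes (2.37%) by the authors' deposited table, which lists 9 of the 10 actin genes and gives such an FDR to 2, Arpc1b and Cfl1. The rule that chose the genes used this contrast, so these calls are no separate support for them.

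The mature miR-125a-5p and its matches in the actin genes are shown because the microRNA is the treatment. The microRNA (RefSeq, chr17:17830817-17830840, GRCm38.p6, plus strand) is printed with its seed, bases 2 to 8, in capitals, and the sites, from the longest annotated 3′ UTR of each gene, with the letters that pair with the seed and any facing A in capitals.
miR-125a-5p: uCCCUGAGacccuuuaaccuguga
Arpc4 site: gagaggttgTCAGGGAaagcttag
Actr3 site: caaccatgtTCAGGGActttggac
A site was either CTCAGGG, which pairs with the whole seed, or TCAGGGA, which pairs with bases 2 to 7 and has an A after them, read on the sense strand only. Both sites found are of the second kind, at base 1523 of the 1672-base Arpc4 3′ UTR and at base 732 of the 1111 bases of Actr3. The other 8 genes had no such letters in their 3′ UTRs, among them Cfl1 (1708 bases) and Arpc1b (1840 bases). A site was present in 2 of the 10 genes, in 20.8% of 21173 genes with a 3′ UTR and in 28.2% of the 8725 tested ones. Of the genes with a site, Actr3 had lower counts with overexpression (29 and 297 against 16 and 16) and Arpc4 overlapped (5 and 8 against 6 and 3).

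Promoter windows, 250 bases before to 50 after the start, were in the RefSeq table (GRCm38.p6, the assembly of mm10) for 9 of the 10 genes, all but Actb. Those of Cfl1 and Arpc1b, which had 0 to 4 counts in each overexpressed library, and of Arpc2, the higher one, are printed to set genes of opposite direction side by side. Capitals mark the GC box GGGCGG or its complement CCGCCC, the letters bound by Sp1 family factors; overlapping matches run together.
Cfl1, chr19:5490205-5490504, plus strand: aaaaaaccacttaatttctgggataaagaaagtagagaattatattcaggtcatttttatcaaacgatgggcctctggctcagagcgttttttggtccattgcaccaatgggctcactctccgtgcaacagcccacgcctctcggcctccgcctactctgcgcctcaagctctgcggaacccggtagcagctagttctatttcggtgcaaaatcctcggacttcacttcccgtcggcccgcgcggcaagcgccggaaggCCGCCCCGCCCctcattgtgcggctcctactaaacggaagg
Arpc1b, chr5:145114006-145114305, plus strand: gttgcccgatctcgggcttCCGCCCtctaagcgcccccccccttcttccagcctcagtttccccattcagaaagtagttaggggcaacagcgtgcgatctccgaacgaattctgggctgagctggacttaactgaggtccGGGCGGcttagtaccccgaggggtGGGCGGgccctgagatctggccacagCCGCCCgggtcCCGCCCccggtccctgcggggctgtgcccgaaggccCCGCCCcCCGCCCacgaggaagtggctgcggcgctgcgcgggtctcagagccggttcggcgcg
Arpc2, chr1:74236267-74236566, plus strand: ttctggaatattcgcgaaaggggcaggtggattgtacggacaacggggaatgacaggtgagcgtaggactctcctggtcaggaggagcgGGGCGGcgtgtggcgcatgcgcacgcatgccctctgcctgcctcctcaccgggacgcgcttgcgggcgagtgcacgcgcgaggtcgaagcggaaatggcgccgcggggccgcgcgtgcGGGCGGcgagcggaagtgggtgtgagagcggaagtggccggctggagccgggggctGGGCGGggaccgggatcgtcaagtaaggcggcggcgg
Cfl1 had 2 GC boxes, Arpc1b 7 and Arpc2 3, and the GC content was 54.7%, 69.3% and 70.0%. A GC box was present in 8 of the 9 genes (not in Arpc4) and in 35.7% of the 32851 promoters in the table. The CArG box, the motif of serum response factor, which controls many actin genes, was found on either strand in 1 of the 9 genes, Arpc4, and in 1.63% of all promoters. The Arpc4 match starts at -250, the edge of the window. Actb, the actin of the set, had no window and could not be read. Among the paralogs with a window, Actg1 alone held a CArG box, at -90. With a GC box in 8 of the 9 genes, its presence cannot separate genes of lower and of higher counts. A match of letters is not a measured site.

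Other actin genes were taken from 7 lists by role, 114 genes of which 73 were tested. Of these, 39 had higher and 34 lower folds, with a median log2 fold of 0.17 against -0.006 over all genes; edgeR called 0, with 6 at an unadjusted p under 0.05. DESeq2 called Brk1 higher and Cyfip2 lower, and edgeR without the filter also called Rdx higher and Pfn4 and Tpm3 lower. Groups did not overlap for 14 lower and 16 higher genes of the 73, beside 18.0% and 15.2% of all genes tested. Of the 114 listed genes, 16 lay above the 95% level of the receptor genes. The adjusted p from edgeR of the tested genes named below ran from 0.814 to 0.996.

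Among regulators of cofilin and its relatives, 13 of 23 were tested, with 10 higher, 3 lower and a median of 0.41. Coro1c, a coronin that works with cofilin and Arp2/3, had 7 and 11 against 23 and 14 counts (log2 fold 1.19 ± 0.49). Twf1, the monomer-binding twinfilin, had 48 and 60 against 14 and 40 (-0.90 ± 0.61). In each the groups stood apart but did not pass the test. Both tested isoforms of Arp2/3 subunits, Arpc5l (-1.24 ± 0.66) and Arpc1a, had lower folds.

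Of the activators and inhibitors of Arp2/3, 18 of 27 were tested, 6 with higher and 12 with lower folds and a median of -0.20. They include the WAVE complex, which switches Arp2/3 on. Its small subunit Brk1 had 2 and 2 counts against 377 and 11, with a log2 fold of 6.72 ± 1.90 that ran from 2.43 to 7.69 when any 1 library was left out. Its subunit Cyfip2 had 591 and 43 against 31 and 18, with a log2 fold of -3.67 ± 1.41 that became -0.47 without endogenous 1. In both the groups stood apart, with most of the signal in 1 library. Brk1 and Cyfip2 were named for the smallest p in each direction, so their opposite signs follow from that choice.

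In the list of other actins, profilins and thymosins 3 of 10 genes were tested. Acta2, smooth muscle actin, had 9 and 10 against 15 and 24 counts (log2 fold 1.14 ± 0.42). Tmsb4x, which holds monomers in reserve, had 821 and 196 against 603 and 296 (-0.12 ± 1.00), so the groups overlapped. The testis profilin Pfn4 had 422 counts in endogenous 1 and 1, 2 and 2 in the others.

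Formins and Ena/VASP proteins, which lengthen unbranched filaments, had 11 of 16 tested, 6 higher and 5 lower, with a median of 0.18. Diaph1 had 17 and 13 against 16 and 179 counts (log2 fold 2.72 ± 1.13, 0.30 without overexpressed 3) and Fmnl2 had 23 and 30 against 17 and 11 (-0.76 ± 0.45). Capping and severing genes had 11 of 14 tested, 7 higher and 4 lower, with a median of 0.29. Add3, an adducin that caps filament ends, had 9 and 14 against 49 and 10 counts, and Capg, a capping protein of macrophages, 14 and 16 against 9 and 11. Capg and Fmnl2 separated the groups by a few counts, whereas the high value of Diaph1 and of Add3 came from 1 overexpressed library.

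Of filament-binding and bundling genes 15 of 21 were tested, 8 higher and 7 lower, with a median of 0.04. Tpm3, a tropomyosin that shields filaments from cofilin and Arp2/3, had 24 and 19 counts against 3 and 2. Its mean of 1.97 counts per kb was below the 95% level of the receptor genes. The groups stood apart, and the log2 fold of -2.93 ± 0.56 ran from -3.33 to -2.56 when any 1 library was left out, with an adjusted p of 0.814 by edgeR. Rdx, radixin, which ties filaments to the membrane, had 10 and 25 against 1054 and 15, and its log2 fold of 5.19 ± 1.94 turned to -0.15 without overexpressed 2.

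**Figure D4:**
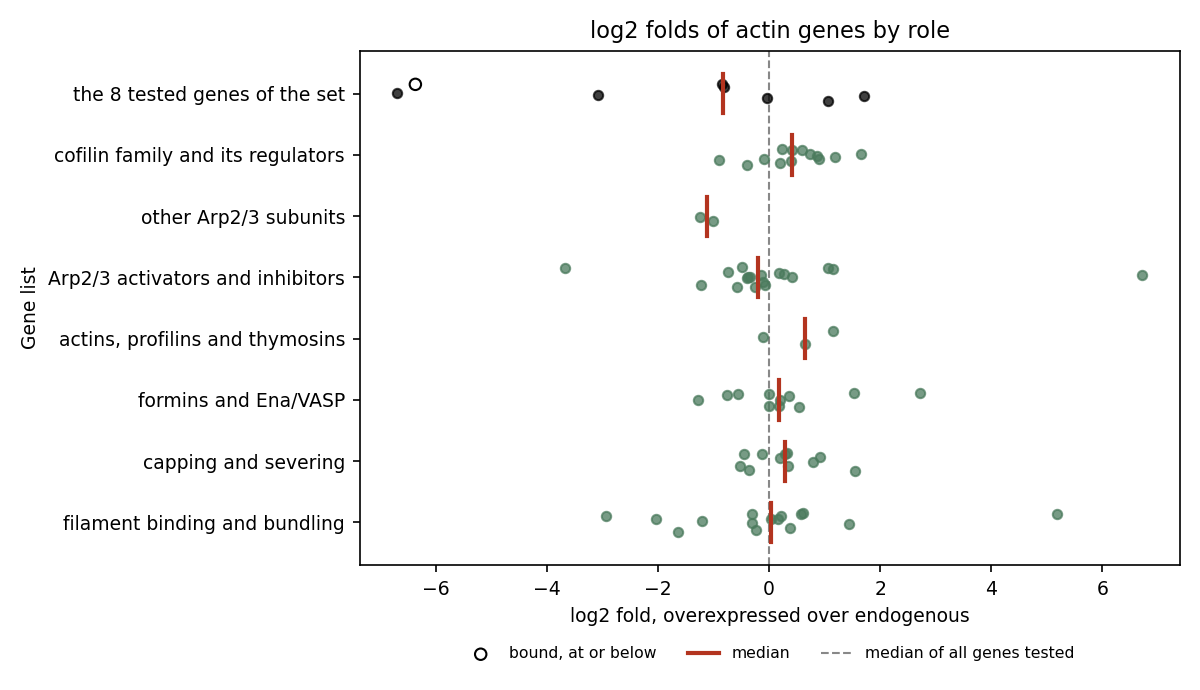
log2 fold, overexpressed over endogenous (x axis), of each tested gene in the set described here and in the role lists (y axis); red bars are list medians and the dashed line the median of all genes tested. List medians lie between -1.12 and 0.65, and Cfl1 (-6.70) and Arpc1b (hollow, a bound at -6.37) lie to the left, with Brk1 (6.72) and Rdx (5.19) farthest to the right.

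The genes whose pattern was most like that of Cfl1 were sought by the root mean square difference of log2 CPM centred on each gene's mean over the 4 libraries, among the 5322 genes whose mean count reached 20. Closest was Iglc3, an immunoglobulin light-chain constant gene, with 57 and 54 counts against 1 and 1 (difference 0.98). Slbp, which binds the stem-loop of histone mRNAs, followed with 228 and 158 against 6 and 9 (1.09), then Arpc1b (1.17). All 3 were low in both overexpressed libraries. A search for likeness to Cfl1 fixes this in advance, so nothing is read from it.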

How the data were processed

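Each library was made from 2000 sorted cells. The deposited table holds whole-number counts of reads for each gene, made by the authors. Per the submitters' processing notes the tools were FastQC 0.11.8, STAR and edgeR 3.24.3 with mm10; which counter and annotation were used, and whether by strand, is not given in the sources used here. The authors' deposited table also holds log2 fold changes, log2 CPM, a likelihood ratio, p-values and a signed score; its fold sign is not stated and only its FDR values and gene list were used.

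Symbols and lengths came from GENCODE vM21, which matched all 55450 rows by identifier. Count columns were matched to libraries by the sample name in the labels, and groups were taken from the labelled genotype. Of the 6 labelled libraries, 4 were analysed. Counts were tested with edgeR 4.0.16 (R 4.3.3): TMM scaling, filterByExpr by group (minimum count 10), quasi-likelihood F test with legacy dispersions and Benjamini-Hochberg adjustment at 0.05 over all 10808 genes tested. Folds of untested genes came from a fit without the filter. Each SE given with an edgeR fold is the absolute log2 fold divided by the square root of the quasi-likelihood F. The script was tested on simulated data. Alternatives were DESeq2 1.42.0, limma 3.58.1 (voom with quality weights), DESeq2 size factors, total counts, no filter, newer edgeR dispersions, each library left out, a 99% receptor level and length of the longest transcript. Adding rows that share at least 5% of 50-base words was chosen after seeing the data. Ratios of counts used Python 3.11.15 and SciPy 1.17.1.

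The 10 genes and all lists were chosen with earlier results of these data known. Named were the 10 genes, their 7 paralogs, in each role list the called genes or otherwise, for each direction, the tested gene of smallest p, and the 3 genes most like Cfl1. Pfn4 was named after its values were seen, as were the pseudogenes and overlapping genes, which were named for shared sequence. One gene list is not reported here.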

Additional observations from a re-analysis of the deposited data

How the results depend on the processing

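No paired analysis was possible because the groups analysed share only 1 replicate number. The count of genes called was 0 with edgeR, 151 with DESeq2 and 822 without the count filter, and that of other actin genes 0, 2 and 5. Of the 8 tested genes 6 had lower folds, and leaving out 1 library moved this from 3 (without endogenous 3) to 7 (without overexpressed 2) and their median log2 fold from -2.50 to 0.60, also with genes at 0 set to their bound. The number of the 10 genes whose groups did not overlap, 5 with all libraries, was 6 to 9 with 1 library left out, where a lone library is easier to separate. Above the 99% receptor level 2 genes were left of 8. Scaling by total counts moved the median of all genes to -0.29. Of 80 log2 folds of single genes under alternatives, 70 moved by less than the spread between replicates, and 9 of the 10 that moved came from leaving out a library. Cfl1, Arpc1b, Arpc2 and Actr3 kept their direction in all settings run. With 2 libraries per group, and single-digit counts for several genes, edgeR's quasi-likelihood test with the count filter called neither small nor large differences. Its smallest adjusted p over all genes tested was 0.771, and Cfl1 was not called at a log2 fold of -6.70. The 0 calls therefore do not show that differences were absent.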
